A study of Mus musculus with 18 samples.

Results

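Malat1 and Neat1 are long non-coding RNAs that stay in the cell nucleus, and they were followed here in mouse pancreatic islets across 3 genotypes and 2 diets. The 2 genes were chosen by symbol among the 22180 genes of the table. A probe set counted for a gene when the array's annotation gave it that symbol alone, and where a gene had several probe sets the one with the highest mean over the 18 arrays was used. Malat1 was read by probe set 17361798, with 17356556 as its other probe set, and Neat1 by probe set 17361805, its only one. The genes were picked with results of these data known, so their levels and differences are given as a description with their spread and without a p-value.

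The arrays measured islet RNA of 16-week-old C57BL/6 mice of both sexes in 6 groups of 3. Knockouts carried RIPCre, a Cre recombinase under the rat insulin promoter that acts in beta cells, together with TRAF2loxP/loxP or TRAF3loxP/loxP alleles; controls were littermates with floxed alleles, whose floxed gene and Cre status the labels do not give. Each genotype was kept on chow or fed a high-fat diet (HFD, 45% of energy as fat) for 8 weeks from week 8. The study's stated subject is the NF-κB-inducing kinase NIK, which TRAF2 and TRAF3 hold down, in beta cells. The labels do not tie each sample to 1 animal, so the spread between arrays may be partly technical.

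Malat1 accumulates in nuclear speckles, bodies rich in splicing factors, and its 3′ end is made by RNase P, which also releases the small cytoplasmic mascRNA. Neat1 is the scaffold of paraspeckles: its long isoform gathers proteins such as Nono, Sfpq and Pspc1 and can hold back RNAs and proteins in the nucleus, and it is known to be raised by stress signals including p53 and hypoxia. Which Neat1 isoform the probe set reads is not given in the sources used here. In the RefSeq gene order both lie on mouse chromosome 19, with Ltbp3 among the genes on one side, mascRNA between them, and Frmd8, Slc25a45, Tigd3 and Dpf2 on the other side.

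The Malat1 promoter is shown because factors that answer to stress can bind such letters and the RNA differed between diets. The RefSeq window (GRCm38.p6, chr19:5802623-5802922, minus strand) holds 250 bases before and 50 after the start; capitals mark the matches to 2 of the motifs searched on both strands.

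Malat1: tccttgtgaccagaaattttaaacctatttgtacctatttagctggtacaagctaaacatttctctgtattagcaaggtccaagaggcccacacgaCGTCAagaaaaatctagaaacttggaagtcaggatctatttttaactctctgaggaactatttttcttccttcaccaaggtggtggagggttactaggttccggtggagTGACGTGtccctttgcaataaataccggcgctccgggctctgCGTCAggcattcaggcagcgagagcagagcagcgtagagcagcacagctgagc

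Counted from 1 at the 5′ end, the core letters bound by hypoxia-inducible factors (ACGTG) stand at bases 208 to 212, and the CREB half-site TGACG at bases 206 to 210 and, on the other strand as CGTCA, at 97 to 101 and 248 to 252. The matches at 206 to 212 overlap. Among 32851 promoter windows of the same length, 19.6% hold ACGTG and 20.8% hold TGACG. The window holds no NF-κB letters, GGG and CC with any 5 bases between them (present in 50.8% of windows), no heat shock letters GAANNTTC (7.86%) and no p53 half-site (8.36%), which says only that these letters are not in this window. A match is a description of letters, not of binding.

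Values are the authors' normalised log2 intensities, so 1 unit is a doubling, and levels of different probe sets are not set against each other. On chow, Malat1 read 11.84, 10.46 and 10.71 in the controls. It read 11.19, 10.75 and 11.19 in arrays labelled TRAF2 knockout, and 10.60, 10.62 and 10.61 in arrays labelled TRAF3 knockout. On chow each knockout group overlapped the controls, and control array 1 stood above every other array of the study. The TRAF2 knockout arrays all lay above the TRAF3 knockout arrays, and the share of genes so separated was not counted. On HFD the controls read 9.95, 9.73 and 9.69, the TRAF2 knockout arrays 9.84, 9.75 and 9.70, and the TRAF3 knockout arrays 10.64, 10.43 and 10.49. The HFD control and TRAF2 knockout arrays overlapped each other and lay below every other array of the study, while the HFD TRAF3 knockout arrays lay in the range of the chow arrays or just under it.

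For Neat1 the same 6 arrays were apart from the rest. On chow it read 8.03, 7.58 and 8.08 in the controls, 8.76, 8.03 and 8.54 in TRAF2 knockout arrays and 7.70, 7.28 and 7.91 in TRAF3 knockout arrays. On HFD it read 6.24, 5.95 and 6.23 in the controls, 6.06, 6.12 and 6.10 in TRAF2 knockout arrays and 8.17, 7.35 and 8.03 in TRAF3 knockout arrays. The 6 HFD control and TRAF2 knockout arrays were the lowest of the 18, between 5.95 and 6.24, and the next array stood at 7.28. All 3 HFD TRAF3 knockout arrays lay within the chow range.

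**Figure D1:**
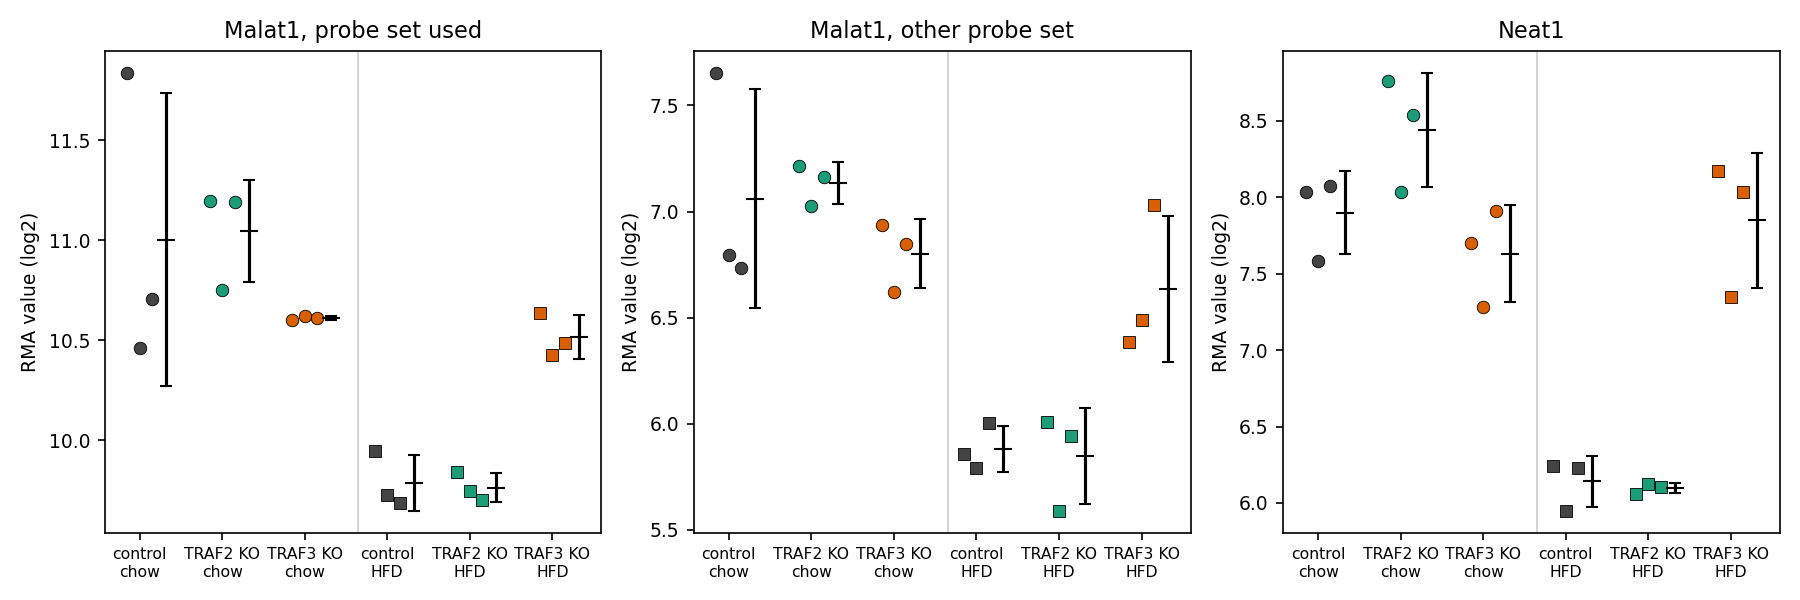
Normalised log2 value of each array for both Malat1 probe sets and for Neat1 in the 6 groups; points are arrays, and the bar beside them is the mean ± SD of 3 arrays. In each panel the HFD control and HFD TRAF2 knockout arrays sit lowest (9.69 to 9.95 for the Malat1 probe set used, 5.95 to 6.24 for Neat1).

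Ordered by group mean, Malat1 ran from 9.76 ± 0.072 (SD, n = 3 here and below) in HFD TRAF2 knockout and 9.79 ± 0.14 in HFD control islets, through 10.52 ± 0.11 in HFD TRAF3 knockout and 10.61 ± 0.008 in chow TRAF3 knockout, to 11.00 ± 0.73 in chow control and 11.05 ± 0.26 in chow TRAF2 knockout islets. Neighbouring groups in this order overlapped, except for the gap between HFD control and HFD TRAF3 knockout. Neat1 ran from 6.10 ± 0.032 in HFD TRAF2 knockout and 6.14 ± 0.17 in HFD control, through 7.63 ± 0.32 in chow TRAF3 knockout, 7.85 ± 0.44 in HFD TRAF3 knockout and 7.90 ± 0.27 in chow control, to 8.44 ± 0.37 in chow TRAF2 knockout islets. Its gap lay between HFD control and chow TRAF3 knockout. Over all 18 arrays the SD was 0.60 for Malat1 and 0.96 for Neat1, larger than that of 92.8% and 97.8% of genes.

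Both RNAs were lower on HFD than on chow in control islets. Malat1 was 2.32-fold lower, a log2 difference of -1.22 ± 0.25 (SE from the limma fit over all 6 groups), and Neat1 was 3.38-fold lower, at -1.76 ± 0.23. For each gene every HFD control array lay below every chow control array; 9.42% of all genes were separated downward in this way. Chow control 1 weighs on Malat1: without it the difference was -0.80, and with it in place 74 genes had a more negative difference than Malat1 and 16 than Neat1. In bulk RNA of whole islets, fewer cells of a type and less RNA per cell cannot be told apart.

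The diet difference had the same direction in arrays labelled TRAF2 knockout, which share no array with the controls. Malat1 was 2.43-fold lower on HFD (-1.28 ± 0.25) and Neat1 5.09-fold lower (-2.35 ± 0.23), again without overlap, as were 12.2% of genes. In both genotypes together, 4.13% of genes were lower on HFD without overlap. The diet differences of the TRAF2 knockout and the controls differed by -0.07 ± 0.35 for Malat1 and -0.59 ± 0.32 for Neat1. For Malat1 that interval is wide, and leaving out single arrays moved the value between -0.48 and 0.20, with chow controls 1 and 2 at the ends.

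In arrays labelled TRAF3 knockout the diets overlapped for both genes: the HFD minus chow difference was -0.09 ± 0.25 for Malat1 and 0.22 ± 0.23 for Neat1. On HFD, Malat1 was 1.66-fold higher in TRAF3 knockout than in control islets (0.73 ± 0.25) and Neat1 3.27-fold higher (1.71 ± 0.23). Neither gene overlapped between these groups, as was so upward for 8.61% of genes; 620 genes had a larger positive difference than Malat1 and 116 than Neat1. The knockout minus control difference was larger on HFD than on chow by 1.12 ± 0.35 for Malat1 and by 1.98 ± 0.32 for Neat1. Without chow control 1 the Malat1 value was 0.70. These differences share the HFD control arrays with the diet comparison in controls and are not separate evidence.

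In the other comparisons of 1 knockout with control on 1 diet the arrays overlapped. On HFD, TRAF2 knockout minus control was -0.02 for Malat1 and -0.05 for Neat1. On chow it was 0.04 and 0.55, and TRAF3 knockout minus control was -0.39 and -0.27. Without chow control 1 the chow Malat1 differences became 0.46 for the TRAF2 knockout and 0.026 for the TRAF3 knockout, which turns the direction of the latter. Averaged over both knockouts and both diets the differences from control were 0.09 ± 0.15 for Malat1 and 0.49 ± 0.14 for Neat1; this mean takes in the HFD TRAF3 knockout difference of 1.71 for Neat1, beside 0.55, -0.27 and -0.05 in the others.

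**Figure D2:**
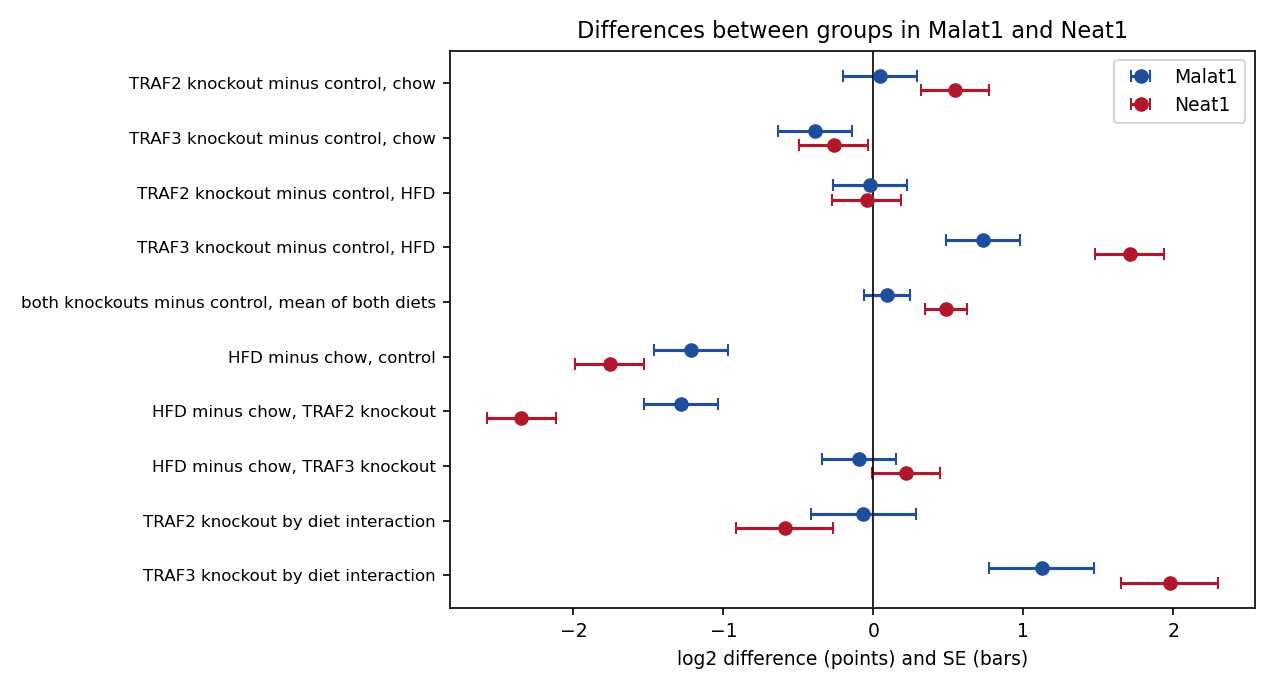
Log2 differences between groups for Malat1 and Neat1 (points) with their SE from the limma fit (bars); a value left of 0 is lower in the first-named group. The diet differences of controls and TRAF2 knockouts lie between -2.35 and -1.22, and the TRAF3 knockout differences on HFD at 0.73 and 1.71.

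The other Malat1 probe set gave the same picture. It read 7.65, 6.80 and 6.73 in chow controls and 5.86, 5.79 and 6.00 in HFD controls, which do not overlap. In HFD TRAF3 knockout arrays it read 6.39, 6.49 and 7.03, above all HFD control arrays. Across the 18 arrays the probe sets of Malat1 had a Pearson r of 0.94, a description of probe sets hybridised to the same RNA.

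Malat1 and Neat1 varied together over the arrays. Pearson's r was 0.88 and Spearman's rho 0.87 over 18 arrays, which share the 6 groups and so are no independent points. Without chow control 1 and HFD control 3 they were 0.97 and 0.90 over 16 arrays. With each group's mean subtracted r was 0.43 and rho 0.48, so most of the shared variation lay between groups. Within the 9 chow arrays, which hold 3 groups and chow control 1, r was 0.55 and rho 0.77. Within the 9 HFD arrays r was 0.97 and rho 0.75, where the TRAF3 knockout arrays stood apart from the rest.

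**Figure D3:**
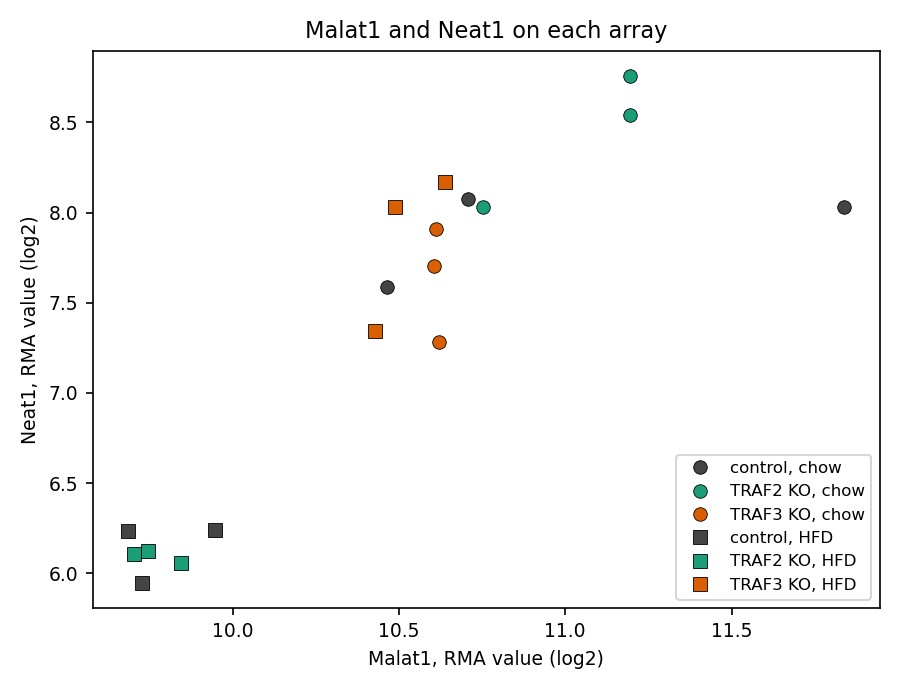
Malat1 (horizontal) against Neat1 (vertical) in normalised log2 values; circles are chow arrays, squares HFD arrays, and colours genotypes. The 6 HFD control and TRAF2 knockout arrays form a separate cluster at the lower left, chow control 1 lies far to the right at 11.84, and the other arrays lie between.

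The genes whose pattern was most like that of Malat1, among 10529 genes above the median level and with a symbol that is no placeholder or small RNA name, were Paxbp1 (r 0.93), Snapc4 (0.92), Chaserr (0.91), Rnpc3 (0.90) and Zfp384 (0.90). Snapc4 is part of the complex that starts transcription of small nuclear RNA genes, Rnpc3 a protein of the minor spliceosome and Chaserr a long non-coding RNA. With group means subtracted these r stayed between 0.70 and 0.86. The Malat1 SD was 0.73 in chow controls and at most 0.26 in the other groups, so these values lean on the chow controls. How they stand without chow control 1 was not tested. The lowest r were those of Mpc1 (-0.86), which carries pyruvate into mitochondria, Efemp1 (-0.85), an extracellular matrix protein, and Atp5e (-0.85), a subunit of ATP synthase. In all, 64 genes had an r above 0.8 with Malat1 and 91 with Neat1.

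Most like Neat1 were Gtpbp2 (0.94), Dvl1 (0.90), Gnl2 (0.90), Nabp1 (0.90) and the metallothionein Mt2 (0.89). For Gnl2, Nabp1 and Mt2 r with group means subtracted was 0.23, -0.12 and 0.19, so their likeness lay between groups. The lowest r were those of Fbln5 (-0.93), an elastic fibre protein, Mustn1 (-0.92) and Nrip2 (-0.91). No gene stood in both sets of named genes.

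Proteins of the bodies that hold these RNAs were compared through lists of known members, with calls from limma's moderated test at a Benjamini-Hochberg adjusted p under 0.05 over all genes. Of 28 measured nuclear speckle proteins, 27 had a negative HFD minus chow difference in controls and 28 in TRAF2 knockouts, with medians of -0.37 and -0.35 against 0.01 for all genes in both. One member was called in each, Srsf3, when 0.361% and 1.08% of genes were called lower; in both the count was 0 with each array centred on its median, and 15 and 8 with the stellate and pericyte score in the fit. Of 20 measured paraspeckle proteins, 19 and 17 had a negative difference, with medians of -0.28 and -0.24, and 0 were called.

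Srsf3, a splicing factor of the SR family, read 7.73 ± 0.15 in chow controls and 6.98 ± 0.18 in HFD controls. It fell on HFD in controls by 0.75 ± 0.14 (limma adjusted p = 0.0232) and in TRAF2 knockouts by 0.69 ± 0.14 (limma adjusted p = 0.0190). These calls were lost without some single arrays (highest adjusted p 0.125 without one of HFD controls 1 and 3 or chow control 2, and 0.101 without one of TRAF2 knockouts 2 and 3 of either diet). On HFD it was higher in TRAF3 knockout than in control islets by 0.87 ± 0.14 (limma adjusted p = 0.00345), a call kept without any single array (0.00198 to 0.0239). Of all 17 alternatives tried, 1 lost this call for Srsf3, at a limma adjusted p of 0.0933. As with Malat1 and Neat1, the HFD control and TRAF2 knockout arrays were its 6 lowest.

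On HFD, 25 of the 28 speckle protein differences between TRAF3 knockout and control islets were positive, with a median of 0.25 against -0.02 for all genes. Of the 28, 3 were called higher in the knockout and none lower, when 1.68% and 0.848% of genes were. Besides Srsf3 these were the kinase Clk1, which phosphorylates SR proteins, by 1.11 ± 0.27 (limma adjusted p = 0.0422), and Srsf2 by 0.60 ± 0.14 (limma adjusted p = 0.0274). The call of Clk1 was lost without any of HFD controls 1 to 3 or TRAF3 knockouts 1 and 2 (up to 0.148), and that of Srsf2 without HFD controls 2 or 3 or TRAF3 knockouts 2 or 3 (up to 0.0920). Over all 17 alternatives tried, 6 lost the call of Srsf2, with a limma adjusted p of up to 0.330. On chow, 22 of the 28 differences were negative, with a median of -0.27 against -0.01 for all genes. None was called higher and 1 lower, when 6.33% and 4.69% of genes were. The knockout by diet difference takes in these chow values as well as those on HFD. It was called for 6 of 28 speckle proteins, all positive, when 5.80% of genes were called, 2.52% positive and 3.29% negative. These counts moved with the settings: 3 with each array centred on its median and 12 with the stellate and pericyte score in place of 6, and between 1 (every probe set fitted) and 8 (dim genes left out, among others) in place of the 3 on HFD. No paraspeckle protein was called between TRAF3 knockout and control on HFD.

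Of 15 measured genes for the processing or binding of Malat1, Ythdc1, a nuclear reader of m6A, was called in several comparisons. It read 9.11 ± 0.22 in chow controls, 8.51 ± 0.22 in HFD controls, 8.28 ± 0.14 in chow TRAF3 knockouts and 9.21 ± 0.28 in HFD TRAF3 knockouts. On HFD it was higher in TRAF3 knockout than in control islets by 0.70 ± 0.16 (limma adjusted p = 0.0263), a call lost without HFD controls 2 or 3 or TRAF3 knockouts 1 or 2 (up to 0.119), with median centring (0.0546) and with only the compared arrays (0.252). On chow it was lower, at a difference of -0.83 ± 0.16 (limma adjusted p = 0.00445), a call kept without any single array (up to 0.0309), when 6.33% of genes were called higher and 4.69% lower. For Malat1 the chow difference was -0.39 ± 0.25, and 0.026 without chow control 1. Its chow TRAF3 knockout arrays lay within the range of the chow controls, with or without that array. In the TRAF3 knockout, 1 of the 15 was called higher and 4 lower on HFD than on chow, when 2.66% and 6.01% of genes were. The differences were positive for 4 and negative for 11. The RNase P proteins Rpp30, Pop1 and Rpp40 were among those called lower, and the other probe set of Pop1 gave 0.06. The call of Rpp30 was lost without chow TRAF3 knockout 3 (limma adjusted p = 0.0647) and that of Rpp40 without that array or HFD TRAF3 knockouts 1 or 2 (up to 0.148).

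**Figure D4:**
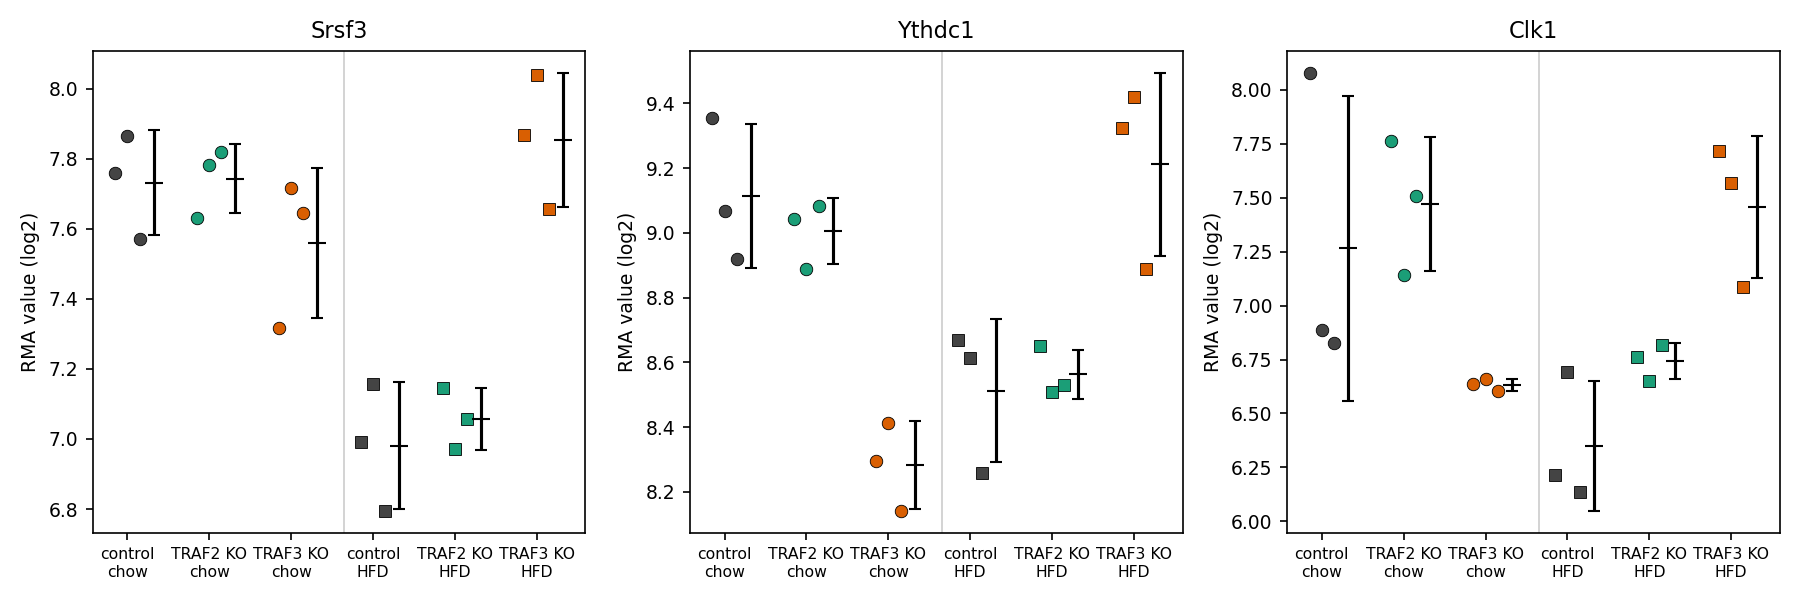
Normalised log2 value of each array for Srsf3, Ythdc1 and Clk1 in the 6 groups, with mean ± SD of 3 arrays. HFD TRAF3 knockout arrays lie above all HFD control arrays in each panel, as was so for 8.61% of all genes. On chow the Ythdc1 mean is lower in TRAF3 knockout (8.28) than in control arrays (9.11).

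Of 24 other measured long non-coding RNAs, 17 had a negative diet difference in controls and 17 in TRAF2 knockouts. None was called in controls, and Snhg11 fell in TRAF2 knockouts by 0.95 (limma adjusted p = 0.0423), a call lost without any 1 of its 6 arrays; its other probe set read 0.27 in the other direction. Of the 10 measured neighbours on chromosome 19, none was called for diet in any genotype. Frmd8, next to Neat1, differed by 0.0019 ± 0.27 between diets in controls and by -0.12 ± 0.27 in TRAF2 knockouts, both with limma adjusted p above 0.9 (0.998 and 0.908). In TRAF3 knockouts, where Malat1 and Neat1 overlapped between diets, its difference was -0.80 ± 0.27 (limma adjusted p = 0.0829).

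Ribosomal protein genes, which are read as a contrast, had positive diet differences in controls for 20 of 22 (median 0.42), of which 1 was called when 0.523% of genes were called higher. That gene was Rpl3 (0.91), whose other probe sets gave -0.34 and 0.02. In TRAF2 knockouts 18 of 22 were positive, with none called, when 0.884% of genes were called higher.

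**Figure D5:**
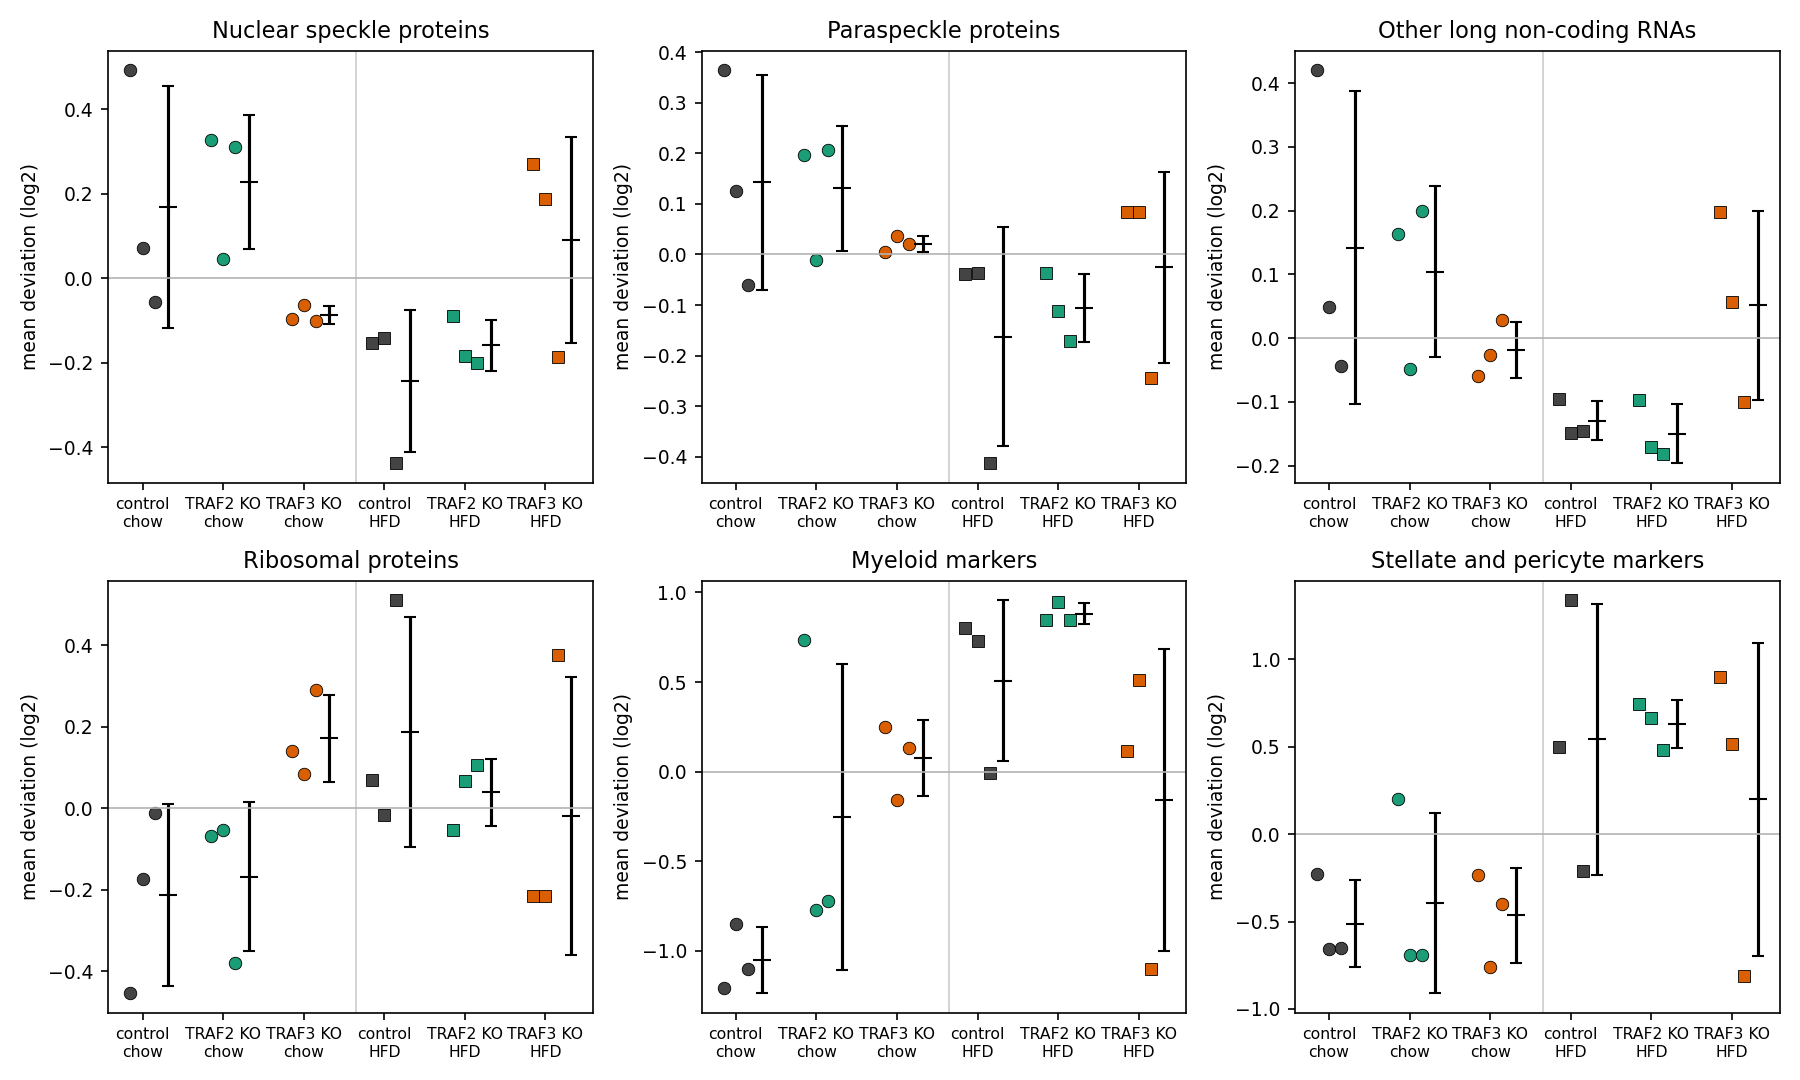
Mean log2 deviation of each list's measured genes from their own mean over 18 arrays, for each array, with the group mean ± SD of 3 arrays; 0 is the mean over all arrays. Speckle protein scores of the HFD control and HFD TRAF2 knockout arrays are all below 0. So are those of all chow TRAF3 knockout arrays (-0.100 to -0.063), chow control 3 (-0.055) and HFD TRAF3 knockout 3 (-0.187). The mean myeloid score is lowest in chow controls.

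Other properties of the samples moved with diet. By Xist above the Y-linked Eif2s3y, 1 of 3 arrays in each chow group was female, against 3 of 3 HFD controls and 2 of 3 in both HFD knockout groups. The only female chow control is chow control 1, the array that weighs on Malat1, so in controls the diets can be compared within a sex only through it (Malat1 11.84 against 9.69 to 9.95, Neat1 8.03 against 5.95 to 6.24). In TRAF2 knockouts, Malat1 read 11.19 on chow and 9.75 and 9.70 on HFD in female arrays, and 10.75 and 11.19 on chow and 9.84 on HFD in male arrays. Neat1 read 8.76 against 6.12 and 6.10 in the females and 8.03 and 8.54 against 6.06 in the males. The diets were apart within each sex. Female HFD TRAF3 knockout arrays read 10.43 and 10.49 for Malat1 and 7.35 and 8.03 for Neat1, above the HFD controls, all female. With a sex score in the fit the control diet difference was -1.34 for Malat1 and -1.79 for Neat1.

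Markers of other cells also moved with diet. Of 8 measured myeloid markers, 7 had a positive HFD difference in controls and 4 were called higher, when 0.523% of genes were; the mean score ran from -1.21 to -0.85 in chow controls and from -0.01 to 0.80 in HFD controls. Of 8 stellate and pericyte markers all were positive in controls and 1 was called; their score ran from -0.65 to -0.23 on chow and from -0.21 to 1.34 on HFD. With the myeloid score in the fit the control diet difference was -1.26 ± 0.36 for Malat1 and -1.76 ± 0.33 for Neat1, and with the stellate and pericyte score -1.39 ± 0.29 and -1.79 ± 0.28. Against HFD controls, HFD TRAF3 knockout arrays had negative differences for 7 of 8 myeloid, 5 of 8 stellate and pericyte and 8 of 8 measured acinar markers, with 1, 1 and 0 called lower, when 0.848% of genes were. With the acinar score in the fit, Malat1 was higher by 0.59 ± 0.26 and Neat1 by 1.81 ± 0.25.

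Hormone genes of islets read high on every array, with Ins2 at 11.0 or more, Iapp at 12.6 or more and Gcg at 12.7 or more, while exocrine genes were also high. Beta cell markers did not stay level. On chow, 9 of 9 measured were negative in TRAF3 knockout minus control (median -1.47), and 7 were called lower, when 4.69% of genes were. From chow to HFD in the TRAF3 knockout 9 of 9 were positive (median 1.11), and 7 were called higher, when 2.66% of genes were. The knockout by diet difference was positive for 9 of 9, and 3 were called, when 2.52% of genes were called positive. Their mean score ran from -1.42 to -0.62 in chow TRAF3 knockout, from 0.11 to 0.64 in chow control, from 0.04 to 0.41 in HFD control and from -0.15 to 0.37 in HFD TRAF3 knockout arrays. Between TRAF3 knockout and control on HFD 0 of 9 were called (median -0.03). The part of the beta cell markers in the chow and interaction values of Malat1 and Neat1 was not tested. The targeted gene Traf2 was not lower in arrays labelled TRAF2 knockout (7.32 ± 0.16 on chow and 7.00 ± 0.13 on HFD) than in controls (7.18 ± 0.15 and 6.82 ± 0.31). Its probe set is not known to lie in the floxed part, so it does not check the deletion, and genotypes follow the labels. Arrays of a group correlated at 0.957 to 0.988 over all probe sets.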

How the data were processed

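The deposited table gave log2 intensities for 41345 probe sets on 18 Affymetrix arrays, 3 in each of 6 groups; RMA and limma are named in the submitters' processing notes, without versions, and no genome build is given in the sources used here. The number of arrays limits the precision, and a background level is not given. Probe sets had 1 gene symbol in 23521 cases, several in 1814 and none in 16010, in the platform's annotation; 1 probe set was kept for each of 22180 genes (highest mean; 1082 genes had several). Array medians were 4.80 to 4.96. Group means were fitted with limma 3.58.1 in R 4.3.3 (lmFit, eBayes; 12 residual degrees of freedom), two-sided, Benjamini-Hochberg over all genes, called at an adjusted p under 0.05, and checked on simulated data. Groups did not overlap when every array of one lay beyond every array of the other. Pathway members named were up to 4 called members with the largest differences per list and comparison; likeness was Pearson's r, the 5 highest and 3 lowest. Frmd8 and Traf2 were added to these with their values already known. The members and lists were chosen with earlier results of these data known. Sex, acinar, stellate and pericyte, and myeloid scores, scaling, other probe sets and left-out arrays were tried as alternatives. The TRAF3 transcript is not reported here.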

Additional observations from a re-analysis of the deposited data

Results flagged for a closer look

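For 22 named genes, up to 4 called members of each list, the TRAF3 knockout minus control difference was not the same on both diets by limma's interaction test (adjusted p under 0.05 over all genes). Positive values mean a larger knockout difference on HFD than on chow. Among speckle and paraspeckle proteins the values, in log2 units, were 1.74 for Clk1, 1.64 for Clk4, 1.05 for Srsf3, 0.86 for Son and 1.09 for Hnrnph1. Among genes that process or bind Malat1 they were 1.53 for Ythdc1, 1.02 for Rpp25, -0.86 for Rpp14 and -1.02 for Pop1, whose other probe set gave 0.03. The long non-coding RNAs Rian and Peg13 had 1.53 and 1.41, and Dpf2, a neighbour of Neat1, 0.74.

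Among p53 targets the values were 1.88 for Btg2, -2.15 for Phlda3 and -1.43 for Plk2. Among hypoxia targets they were 1.30 for Vegfa, -1.71 for Ldha, -1.47 for P4ha1 and -2.66 for Car9, whose other probe set gave -0.33. Among ribosomal protein genes they were -0.85 for Rpl27, -1.16 for Rpl3 and -1.29 for Rps19. Other probe sets gave -0.33 for Rpl27, -0.45 and -0.01 for Rpl3, and 0.04 for Rps19. A further Rps19 probe set repeated the value of the one used to every digit given, and is not taken as a separate reading. Leaving out single arrays left Srsf3, Ythdc1, Btg2, Vegfa, P4ha1 and Car9 called each time, and the other 16 lost the call without at least 1 array. Among the other alternatives, P4ha1 and Car9 each lost the call in 1 (limma adjusted p of 0.0886 and 0.0638). Malat1 (1.12) and Neat1 (1.98) had the same sign as the speckle proteins named. So had Hnrnph1, Ythdc1, Rpp25, Rian, Peg13, Dpf2, Btg2 and Vegfa, so this sign is not particular to speckle proteins.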

How the results depend on the processing

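All 164 alternatives for Neat1 moved its differences by less than the residual SD of the arrays, as did 164 of 174 for Malat1. The other 10 for Malat1 all left out chow control 1, alone or with HFD TRAF3 knockout 3. Both tallies take in fits that could not move a difference, such as those with the replicate number as a block. For Malat1, leaving out single arrays gave -1.49 to -0.80 for HFD minus chow in controls, -0.48 to 0.20 for the TRAF2 interaction, -0.23 to 0.46 for TRAF2 knockout minus control on chow, 0.70 to 1.39 for the TRAF3 interaction and -0.66 to 0.026 for TRAF3 knockout minus control on chow, which turned positive without chow control 1. Without chow control 1 and HFD TRAF3 knockout 3 together the values were -0.80, -0.48, 0.46, 0.72 and 0.026, in the same order. Of the values that alternatives gave for counts of list members called, 159 differed by over 1.5 times and 311 did not. Numbers of genes called over the table also moved, and the cause was not tested. For TRAF2 knockout minus control on chow (66) they were 33 with the myeloid score, 41 without both arrays, 40 with every probe set and 0 with only the compared arrays, and on HFD (56) 85 with the stellate and pericyte score and 119 without both arrays. For TRAF3 knockout minus control on chow (2445) they were 4062 with the acinar and 1175 with the myeloid score, and on HFD (560) 973 with the stellate and pericyte score, 1039 with the myeloid score, 1038 without both arrays and 144 with only the compared arrays. For both knockouts (622) they were 1178 with the acinar score, 1019 with the stellate and pericyte score and 387 with every probe set. For HFD minus chow in controls (196) they were 306 without dim genes, 49 with the sex score, 364 with the acinar score, 1696 with the stellate and pericyte score, 1339 with the myeloid score, 938 without both arrays, 112 with every probe set and 78 with only the compared arrays. In TRAF2 knockouts (435) they were 918, 731 and 1057 with the acinar, stellate and pericyte, and myeloid scores, 1167 without both arrays and 276 with every probe set. In TRAF3 knockouts (1923) they were 2890 with the stellate and pericyte score, 3058 without both arrays, 1262 with every probe set and 608 with only the compared arrays. For the TRAF3 interaction (1287) they were 2005 with the stellate and pericyte score, 691 with the myeloid score and 746 with every probe set. Leaving out single arrays gave 10 to 89 and 20 to 92 genes for the TRAF2 knockout on chow and HFD, 786 to 3016 and 249 to 806 for the TRAF3 knockout, 342 to 865 for both, 19 to 603, 123 to 741 and 618 to 2466 for diet in controls, TRAF2 and TRAF3 knockouts, and 414 to 1963 for the TRAF3 interaction. No gene was called for the TRAF2 interaction by limma in any of these, where 628 genes had an unadjusted p under 0.05. With the replicate number as a block, 189 genes were called for diet in controls and 546 for the TRAF3 knockout on HFD, and no count over all genes moved by over 1.5 times; in this balanced design the block cannot change a difference, and the SE of the diet difference in controls went from 0.25 to 0.21 for Malat1 and from 0.23 to 0.15 for Neat1. The numbers do not pair the samples: of 45 pairs of same-numbered arrays 16 had a correlation of deviations over 0.1, with a range of -0.55 to 0.53. Signal over background is not given in the table, so a floor could not be set, and 3 arrays a group limit every difference. The score alternatives for stellate, pericyte and myeloid markers, the acinar score for numbers of genes called, and the removal of both arrays, were chosen after seeing the data.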

Other observations

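Genes known to respond to p53, a factor that also raises Neat1, had 15 measured members. On HFD 3 of them were called higher in TRAF3 knockout than in control islets, when 1.68% of genes were. None was called lower, and 12 differences were positive (median 0.35). On chow, where Neat1 differed by -0.27 and its arrays overlapped, 5 of the 15 were called higher and 1 lower, with a median of 0.59, when 6.33% and 4.69% of genes were called. Cdkn1a, a cell cycle inhibitor, read 8.97 ± 0.25 (SD, n = 3) in HFD controls and 11.05 ± 0.20 in HFD TRAF3 knockouts, higher by 2.08 ± 0.30 (SE; limma adjusted p = 0.00178). Btg2, an antiproliferative gene, was higher by 1.85 ± 0.20 (limma adjusted p = 0.000397) and Trp53inp1 by 1.58 ± 0.33 (limma adjusted p = 0.0167). The call of Trp53inp1 was lost without HFD control 3 or TRAF3 knockouts 1 or 2, up to an adjusted p of 0.0778. Over all 17 alternatives tried, its limma adjusted p reached 0.161. On HFD compared with chow, Cdkn1a and Btg2 fell in TRAF2 knockouts by 1.32 and 1.02 (limma adjusted p = 0.0329 and 0.0129), and single arrays left out took the calls away, up to 0.138 and 0.0630. In controls 8 of the 15 had negative diet differences and 1 was called, when 0.361% of genes were called lower: Sesn2 fell by 1.09 (limma adjusted p = 0.0401), a call lost without any of 5 of its 6 arrays (up to 0.185). The count was 0 with median centring, the replicate number as a block or the sex score, and reached 4 with the myeloid score.

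Of 13 measured hypoxia-responsive genes, none was called between TRAF3 knockout and control on HFD. On chow 5 were called higher and 1 lower, when 6.33% and 4.69% of genes were. Ldha and Pgk1, enzymes of glycolysis, were higher on chow by 1.49 ± 0.29 and 1.27 ± 0.21 (limma adjusted p = 0.00519 and 0.00221). Malat1 and Neat1 were not among the genes separated upward in that comparison, with differences of -0.39 and -0.27.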
